A study of Mus musculus with 6 samples.

Results

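The genes described here are 48 regulators of pre-mRNA splicing, measured in microglia of the mouse spinal cord. They were taken by gene name from the families of heterogeneous nuclear ribonucleoproteins (hnRNPs), serine- and arginine-rich (SR) proteins and other sequence-specific RNA-binding splicing factors. All 48 of the 48 symbols matched 1 gene each among the 55401 genes of the count table, and all 48 passed the filter on low counts, as did 16248 genes in all.

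The libraries were made from microglia, macrophages that live in the brain and spinal cord, isolated here from the spinal cord with beads coated for CD11b. Each library held cells pooled from 3 spinal cords of mice aged 7 months, and 9 animals of each line gave 3 libraries. The control group, NTg, was non-transgenic C57BL/6. The other group was the heterozygous double mutant ATXN2-Q33;TDP-43, which carries human ATXN2 with a polyglutamine tract of 33 repeats as a knock-in and human TDP-43. What drives the expression of human TDP-43 is not given in the sources used here. Mice of both groups were untreated. Libraries are named by group and the number in the labels: NTg 7, 9 and 11, and mutant 8, 10 and 12. The comparison of these groups asks how the microglial transcriptome of the double mutant differs from that of control animals.

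Splicing regulators bind short sequences in introns and exons and shift the choice of splice sites. SR proteins mostly bind exonic enhancers and favour exon inclusion, whereas many hnRNPs coat nascent transcripts and often repress splice sites. TDP-43 itself is an hnRNP that represses poorly conserved exons, and several of its relatives, among them hnRNP A1, hnRNP A2/B1, matrin 3 and the FET proteins, are RNA-binding proteins known from inherited motor neuron and muscle disease.

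Library totals ran from 12553570 to 22854628 counts, and the common biological coefficient of variation across all genes was 0.261. The 10 microglial markers were all measured and summed to 10532 to 15343 CPM, the counts scaled to a common library size, against 42.8 to 134 CPM for monocyte markers, 81.5 to 121 CPM for border macrophage markers and 18.6 to 37.0 CPM for neuronal markers. Oligodendrocyte markers summed to 186, 1676 and 448 CPM in NTg 7, 9 and 11 and 359.9, 1172 and 170.4 CPM in mutant 8, 10 and 12, and neutrophil markers to 641, 168 and 403 CPM in NTg 7, 9 and 11 and 1676, 1082 and 56.3 CPM in mutant 8, 10 and 12. Ependymal markers summed to 21.1, 29.0 and 21.6 CPM in NTg 7, 9 and 11 and 28.9, 84.5 and 41.8 CPM in mutant 8, 10 and 12. All 6 of those tested had positive fold changes and none passed the test. Of these 6, 2 did not overlap, against 6.85% of all genes, and 4 had an unadjusted p under 0.05, against 2.26%. Monocyte markers summed to 64.5, 48.5 and 72.4 CPM in NTg 7, 9 and 11 and 134, 103 and 42.8 CPM in mutant 8, 10 and 12. All 9 neutrophil and all 7 monocyte markers had positive fold changes with overlapping groups, and mutant 12 had the lowest sum of both lists. Astrocyte markers summed to 106, 121 and 127 CPM in NTg 7, 9 and 11 and 114, 195 and 156 CPM in mutant 8, 10 and 12, with 7 of 8 positive. Positive fold changes were found for 7 of 9 oligodendrocyte, 6 of 8 neuronal, 3 of 6 border macrophage and 3 of 10 microglial markers, against 52% of all genes. The part of these cells in the members' values was not tested. Lymphocyte markers summed to at most 1.3 CPM, and the defining markers Opalin, Chat, Slc17a6 and Cd3e were at 0 in some libraries. In pooled cells such as these, fewer cells of a type and less RNA per cell cannot be told apart. Mouse Tardbp stood at 93.3, 96.4 and 95.4 CPM in NTg, against 88.6, 103 and 104 CPM in the mutant, with overlapping groups. The table counts the mouse gene, so this does not measure human TDP-43.

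The members were well expressed, and their levels varied little between libraries. Per kilobase of merged exon length, the scale on which genes can be compared, the median member stood at 32.1 CPM per kilobase, against 3.51 for the median gene tested, and 46 of 48 members lay above that median. Together the 48 genes took 1.24% to 1.37% of all counts of a library. Their summed level was 13149 ± 642 CPM in NTg and 13017 ± 307 CPM in the mutant (SD, n = 3 libraries each). The highest member was Sfpq, a paraspeckle protein, at 162 CPM per kilobase, followed by Hnrnpab at 127, Srsf5 at 125, Hnrnpa1 at 109.8 and Hnrnpk at 108. At the low end stood Hnrnpll at 3.12 and Hnrnpr at 2.96 CPM per kilobase, so that the range over members was 54.6-fold. Most neighbours in this order had overlapping ranges over the libraries. In 3 of 47 neighbouring pairs every library of the upper gene exceeded every library of the lower. These were Hnrnpc above Ewsr1, Srsf10 above Celf2 and Hnrnph3 above Hnrnpll. Neighbours with overlapping ranges can still keep their order within each library, which was not compared here. The order depends on the length used. With the longest protein-coding transcript in place of the merged exons, Hnrnpa2b1 came first at 399 CPM per kilobase, Hnrnpr stayed last at 3.06, and 9 of the 10 highest genes were shared.

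**Figure D1:**
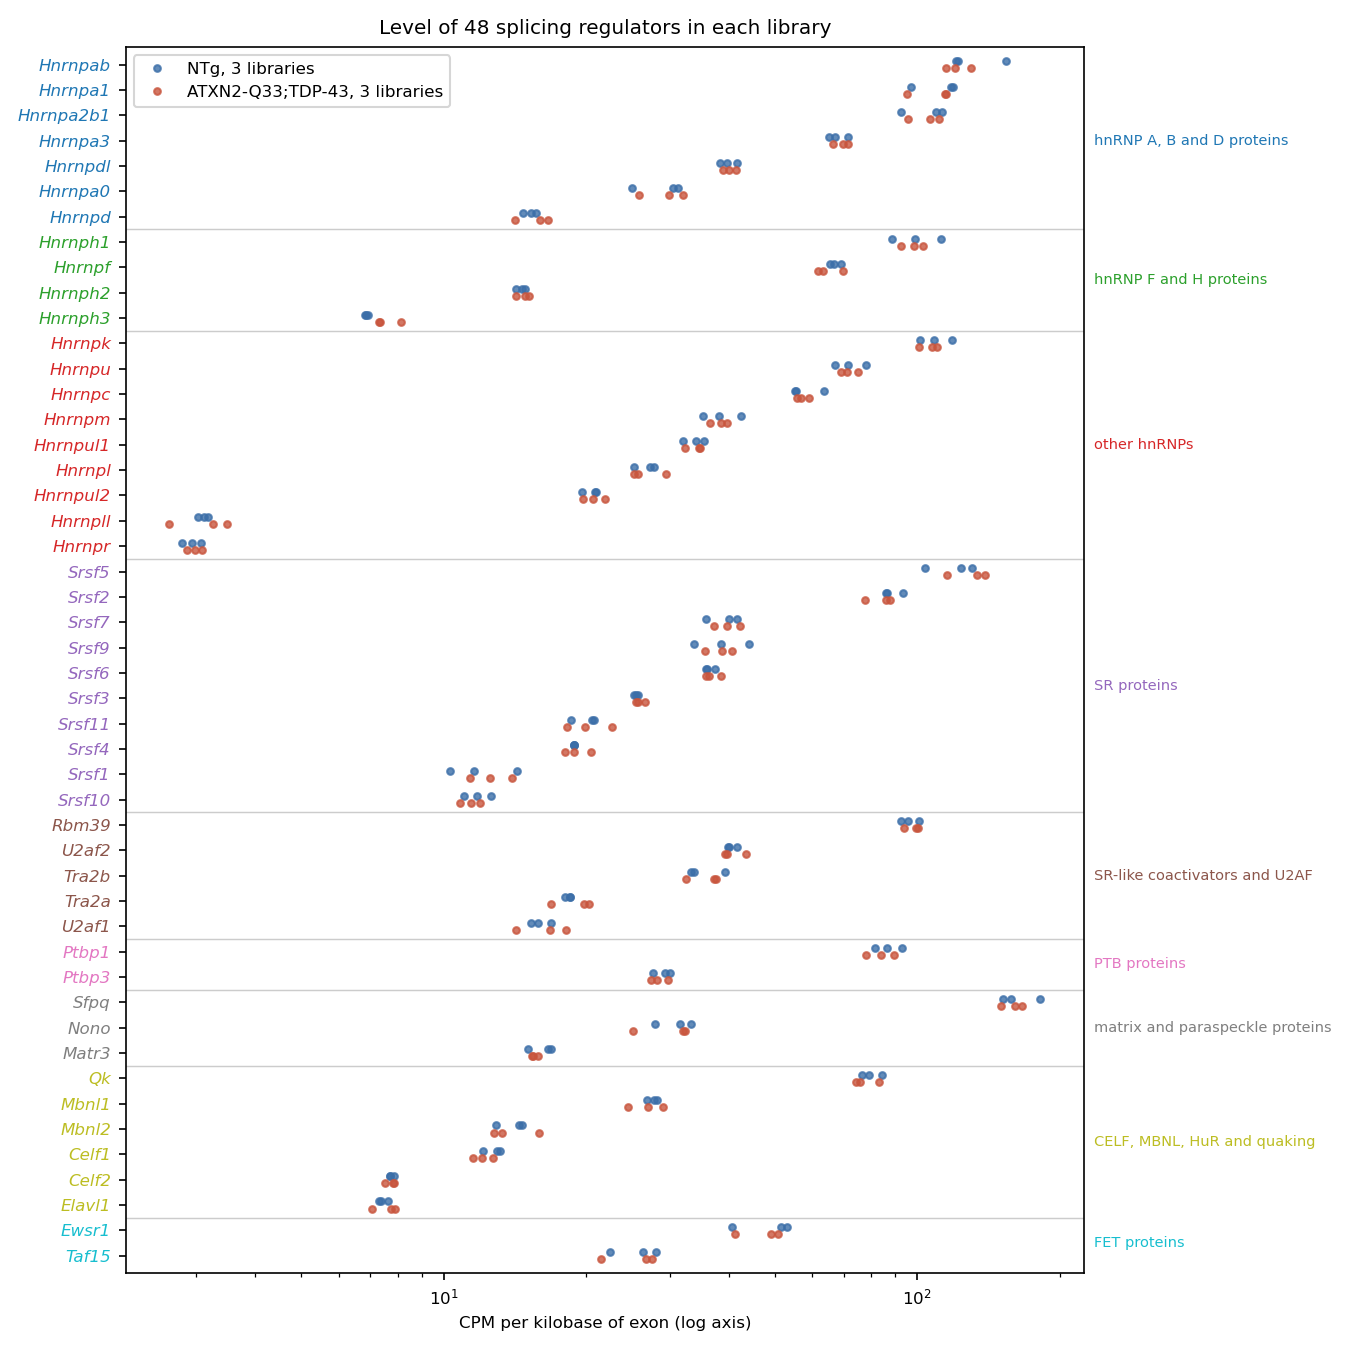
Level of each of the 48 splicing regulators, in CPM per kilobase of exon on a log axis, with 1 point per library (NTg blue, mutant red) and the genes grouped by role. Sfpq is highest and Hnrnpr lowest, and within a gene the 6 libraries lie close together compared with the 54.6-fold range between genes.

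Between genotypes no member passed the test. With edgeR's quasi-likelihood test and Benjamini-Hochberg adjustment over all 16248 genes, 0 of 48 members were higher and 0 were lower in the double mutant at an adjusted p of 0.05, where 0% of all genes were called. At an unadjusted p under 0.05 the count was still 0 members, beside 368 genes or 2.26% of all. DESeq2 called 7 genes and limma voom 0, with 398 and 285 genes at an unadjusted p under 0.05, and in both the count of members was 0 by either measure. Of the members, 24 had a positive and 24 a negative log2 fold change (mutant minus NTg), against 52% positive over all genes. Without mutant 8 the positive count was 14 of 48. The median log2 fold change was -0.00027 over members and 0.0082 over all genes.

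The intervals show how large a difference the data leave possible for each member. The 95% interval of each of the 48 log2 fold changes included 0 and lay within 1.5-fold in either direction, which held for 46.9% of all genes tested and for 85.7% of the 8310 genes above 10 CPM. For 42 members the interval lay within 1.25-fold. The lowest bound of any member was -0.38 and the highest 0.40 on the log2 scale, or 0.768-fold and 1.32-fold. The median standard error was 0.094 for members and 0.13 for genes above 10 CPM. All members stood above 10 CPM, and the lowest count of a member in any library was 268. The intervals treat the 3 pools of a group as the replicates. They bear on gene totals only, since the deposited table holds no isoforms.

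**Figure D2:**
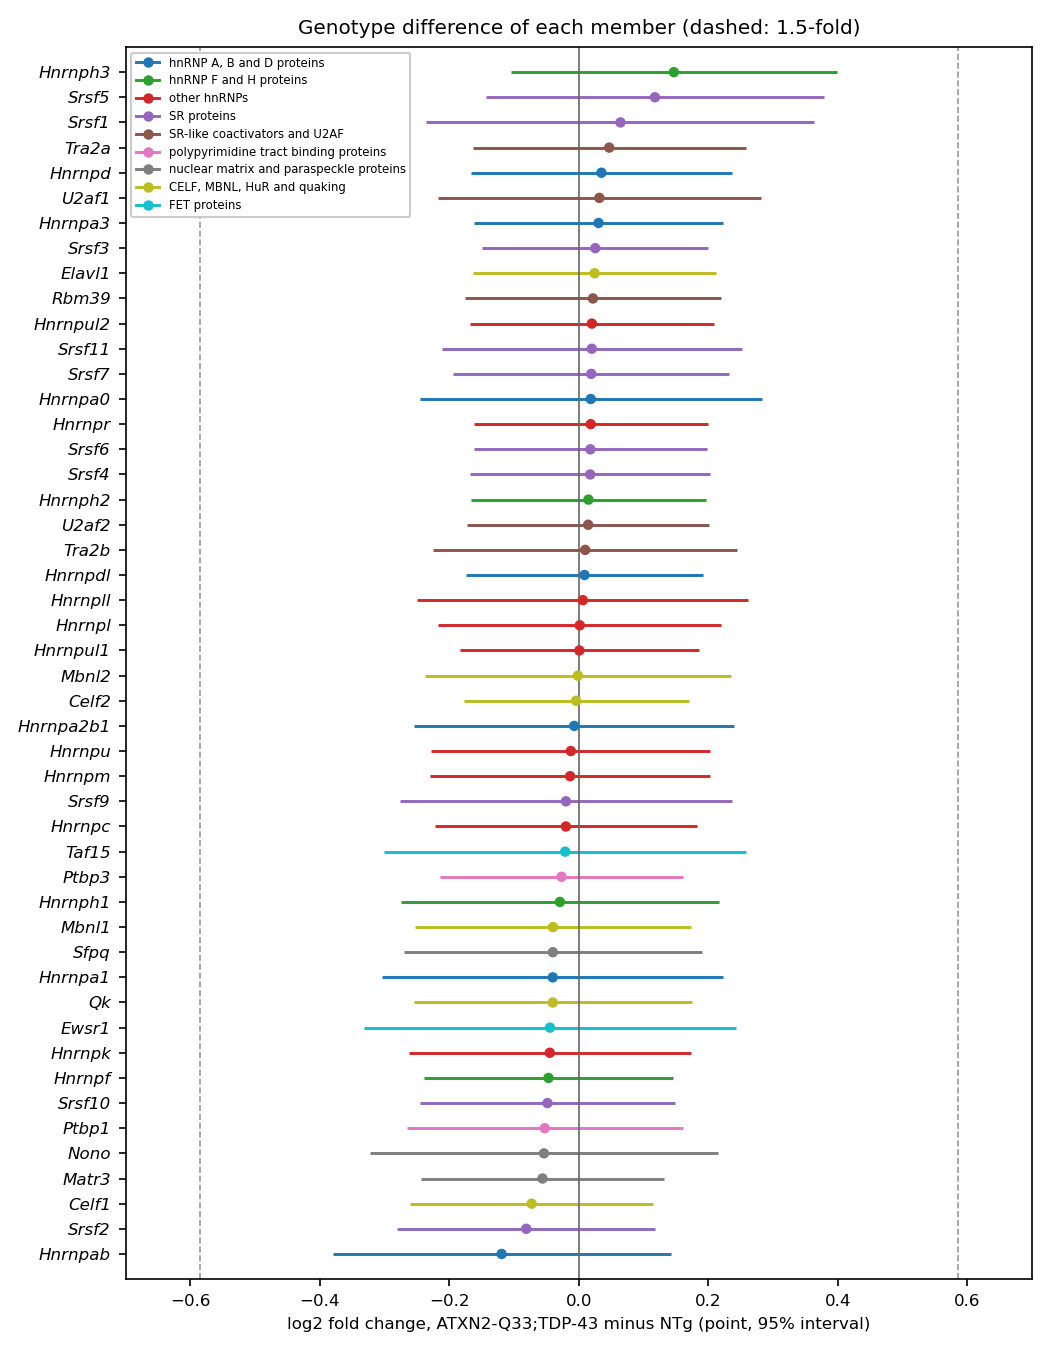
The log2 fold change (mutant minus NTg) of each member as a point with its 95% interval, ordered by size and coloured by role, with dashed lines at 1.5-fold. All 48 intervals cross 0 and none reaches the dashed lines. Hnrnph3 is at the top and Hnrnpab at the bottom.

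Among the hnRNPs of the A, B and D class, which include the most abundant proteins of the nucleus that coat pre-mRNA, 4 of 7 had positive and 3 negative fold changes, and none passed the test. Hnrnpab (mm10 chr11:51600100-51606847, minus strand), which codes for an hnRNP related to the AU-rich element binding protein AUF1, stood at 429.6, 336 and 339 CPM in NTg 7, 9 and 11 and at 334, 321 and 362 CPM in mutant 8, 10 and 12. NTg 7 was high and the other 5 libraries lay together, so the groups overlapped. Its log2 fold change of -0.12 (SE 0.12) was the most negative of the members (edgeR adjusted p = 0.9996), and it was 0.0045 without NTg 7. Hnrnpa1, a repressor of many exons, gave 376, 372 and 306 CPM in NTg, against 363, 361 and 301 CPM in the mutant. The lowest library of each genotype was the last named, NTg 11 and mutant 12, and the groups overlapped. Hnrnpa2b1, whose protein also carries RNAs along processes of neural cells, gave 743, 607 and 722 CPM in NTg, against 699, 630.1 and 732 CPM in the mutant, with NTg 9 and mutant 10 lowest. The fold changes of these 2 genes were -0.040 (SE 0.12) and -0.0071 (SE 0.11) on the log2 scale. Per kilobase of merged exon the ratio of Hnrnpa2b1 to Hnrnpa1 was 0.953 ± 0.18 in NTg and 0.975 ± 0.17 in the mutant (SD, n = 3), but the ratio of their means turned to 2.21 per kilobase of the longest coding transcript. Hnrnpa3 averaged 370.0 CPM (log2 fold change 0.031), and Hnrnpdl 193 CPM (log2 fold change 0.0089). Hnrnpd, which codes for AUF1, averaged 113 CPM (log2 fold change 0.035), and Hnrnpa0 77.9 CPM (log2 fold change 0.019). Hnrnpab exceeded its relative Hnrnpd by a per-kilobase ratio of 8.68 ± 1.0 in NTg and 7.87 ± 1.1 in the mutant (8.97 on the longest coding transcripts).

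The F and H class binds runs of guanines. Hnrnph3 (mm10 chr10:63014664-63024217, minus strand), the least abundant member in CPM, was the only member whose groups did not overlap. It stood at 21.6, 21.5 and 21.8 CPM in NTg, against 23.1, 23.1 and 25.6 CPM in the mutant. The 3 NTg libraries lay within a narrow band and each mutant library lay above it, with mutant 12 the highest. The log2 fold change was 0.15 (SE 0.11), the largest of the members, with a 95% interval of -0.10 to 0.40 (edgeR adjusted p = 0.9996). The exact two-sided permutation test gave p = 0.1, the smallest that 3 against 3 libraries allow. Among all genes tested, 6.85% did not overlap between the groups, 3.27% with the mutant higher and 3.58% with it lower, so non-overlap was no commoner among the 48 members than among all genes. With 1 library left out the count of members without overlap was 2 without NTg 7, where 11.6% of all genes did not overlap, and 2 without mutant 10, where 16.1% did not. It was 3 without mutant 8 (14.8% of all genes), 5 without NTg 11 (19.0%) and 10 without mutant 12 (19.7%). Hnrnph1, the main gene of the class in these cells, gave 657, 516 and 578 CPM in NTg, against 600.4, 539.9 and 576 CPM in the mutant. The 3 mutant libraries lay between the lowest and the highest NTg library, and the log2 fold change was -0.029 (SE 0.11). Hnrnph1 exceeded its X-linked paralogue Hnrnph2 by a per-kilobase ratio of 6.86 ± 0.88 in NTg and 6.64 ± 0.15 in the mutant, and by 14.8 on the longest coding transcripts. Hnrnph2 averaged 64.0 CPM with a log2 fold change of 0.015, and its highest library was only 1.06 times its lowest. Hnrnpf averaged 201 CPM (log2 fold change -0.047).

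Of the 9 other hnRNPs, 5 had positive and 4 negative fold changes, from -0.045 for Hnrnpk to 0.020 for Hnrnpul2. Hnrnpk, which binds cytosine-rich RNA and DNA, stood at 768, 655 and 701 CPM in NTg, against 713, 651 and 695 CPM in the mutant. NTg 7 was highest and mutant 10 lowest, the groups overlapped, and the log2 fold change was -0.045 (SE 0.10). Hnrnpu, the scaffold attachment factor that binds chromatin-associated RNA, gave 905, 779.8 and 829.6 CPM in NTg, against 868, 801 and 824 CPM in the mutant, with a log2 fold change of -0.012 (SE 0.10). Its groups overlapped throughout. Hnrnpr, lowest of all members per kilobase, gave 62.2, 65.2 and 68.4 CPM in NTg, against 68.6, 66.2 and 63.8 CPM in the mutant. Both groups covered nearly the same range, with a log2 fold change of 0.018 (SE 0.080). The merged exons of Hnrnpr span 22199 bases, so the gene ranked higher in CPM than per kilobase. Hnrnpll, known for controlling CD45 splicing in lymphocytes, gave 36.4, 37.1 and 35.4 CPM in NTg, against 38.1, 40.6 and 30.7 CPM in the mutant. Here mutant 12 was the lowest library of all 6 and mutant 8 and 10 the highest, so the groups overlapped and the log2 fold change was 0.0063 (SE 0.11). Hnrnpl, the widely expressed relative that binds CA repeats, averaged 159.6 CPM (log2 fold change 0.0015), and exceeded Hnrnpll by a per-kilobase ratio of 8.62 ± 0.23 in NTg and 8.65 ± 0.85 in the mutant (5.10 on the longest coding transcripts). The remaining genes of this group were Hnrnpc, which binds uridine tracts, at 249 CPM (log2 fold change -0.020), Hnrnpm at 306 CPM (log2 fold change -0.013), Hnrnpul1 at 293 CPM (log2 fold change 0.00087) and Hnrnpul2 at 147 CPM (log2 fold change 0.020).

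**Figure D3:**
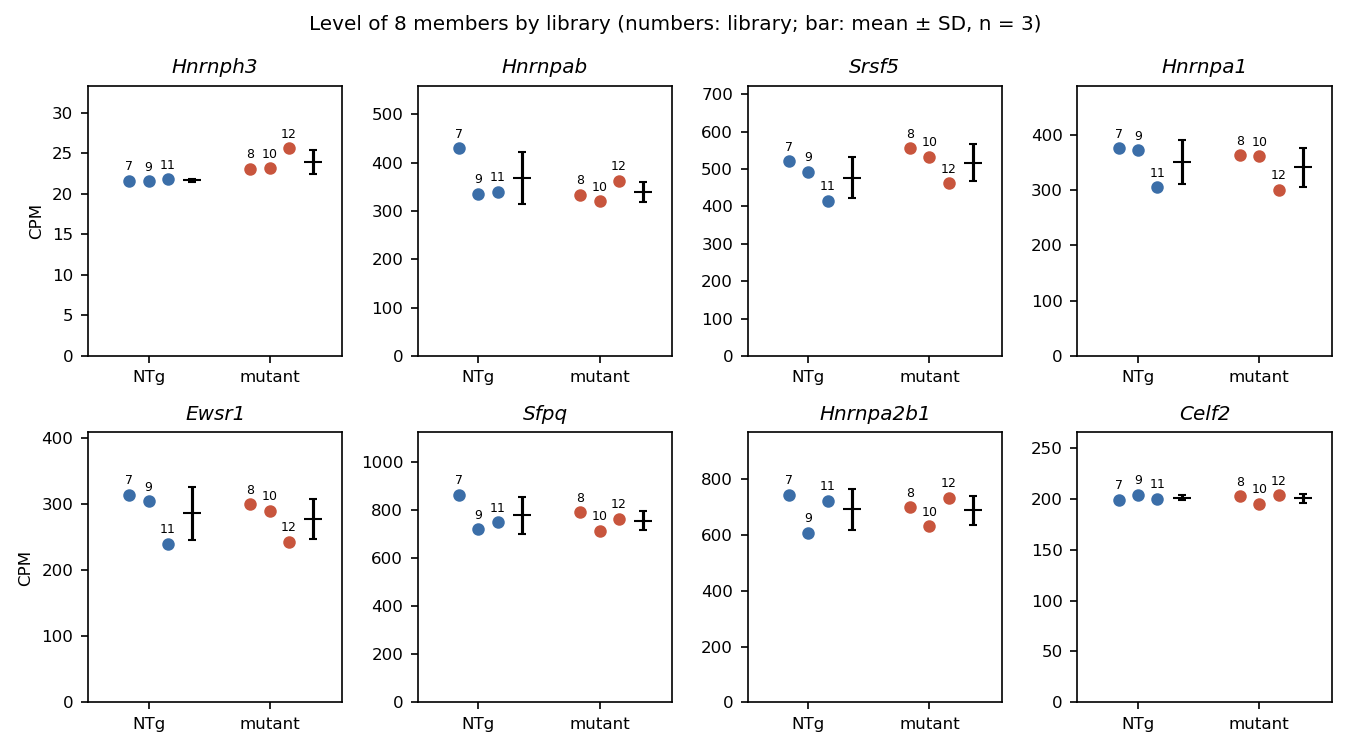
CPM of 8 members in each of the 6 libraries, NTg in blue and mutant in red, with library numbers beside the points and bars for the mean ± SD (n = 3). Hnrnph3 is the only panel in which the 3 mutant libraries all lie above the 3 NTg libraries.

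For the SR proteins, 7 of 10 had positive and 3 negative fold changes, and none passed the test. Srsf5 (mm10 chr12:80945504-80950507, plus strand), the highest of them per kilobase, stood at 521, 493 and 415 CPM in NTg 7, 9 and 11 and at 556, 533 and 462 CPM in mutant 8, 10 and 12. Each mutant library lay above the NTg library that precedes it in number, while the 2 groups overlapped because NTg 11 and mutant 12 were both low. The log2 fold change was 0.12 (SE 0.12) with a 95% interval of -0.14 to 0.38. With neighbouring numbers as a block, a pairing that the labels do not name, the estimate kept its size at 0.12 (SE 0.05, edgeR unadjusted p = 0.0295, adjusted p = 0.483). In that fit 1 of 48 members, Srsf5, had an edgeR unadjusted p under 0.05. So had 1401 of 16248 genes, a larger share than of the members. With combined alignments as a covariate, which leaves NTg 11 alone to stand for its group, the estimate was 0.32. Leaving out 1 library moved the estimate between 0.031 without NTg 11 and 0.19 without mutant 12, with 0.065 without mutant 8 and 0.19 without NTg 7. Srsf2, also known as SC35 and the classical marker of nuclear speckles, gave 276, 256 and 254 CPM in NTg, against 254, 229.6 and 259 CPM in the mutant. Mutant 10 was lowest and NTg 7 highest, with the other 4 libraries close together, and the log2 fold change was -0.081 (SE 0.088).

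Srsf1, the founding SR protein, had the widest spread of any member, with the highest library 1.39 times the lowest. It gave 66.1, 58.8 and 81.7 CPM in NTg, against 71.6, 64.9 and 79.7 CPM in the mutant, and the spread within NTg covered the mutant libraries, so that its log2 fold change of 0.064 (SE 0.13) was smaller than its error. Srsf3, the smallest SR protein, averaged 203 CPM (log2 fold change 0.025), and its 6 libraries differed by at most 1.06 times. Srsf7 averaged 140.0 CPM (log2 fold change 0.019), Srsf6 176 CPM (log2 fold change 0.018), and Srsf4 67.6 CPM (log2 fold change 0.018). Srsf11 averaged 169.9 CPM (log2 fold change 0.020) and Srsf9 63.8 CPM (log2 fold change -0.020). Srsf10, which acts as a repressor once dephosphorylated on heat shock, averaged 81.2 CPM (log2 fold change -0.048). The heat shock genes, a list of 10, summed to 7236, 6511 and 8789.7 CPM in NTg 7, 9 and 11 and 8241, 9591 and 9747 CPM in mutant 8, 10 and 12. Of these genes 10 of 10 had positive fold changes, with none past the test. The groups did not overlap for 3 of them, against 6.85% of all genes, and 2 had an unadjusted p under 0.05, against 2.26%. Their part in the values of the SR proteins was not tested.

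All 5 genes of the SR-like coactivators and U2AF had small positive fold changes, from 0.0098 to 0.047, each within its error. Rbm39, a coactivator related to U2AF, stood at 699.9, 665 and 643 CPM in NTg, against 697, 689.9 and 651 CPM in the mutant. The groups overlapped, the highest library was only 1.09 times the lowest, and the log2 fold change was 0.022 (SE 0.088). Tra2a, a vertebrate homologue of the fly sex determination factor transformer 2, gave 126, 128 and 129 CPM in NTg, against 117, 141 and 137 CPM in the mutant. Mutant 8 was the lowest of all 6 libraries and mutant 10 and 12 the highest, with NTg between them, and the log2 fold change was 0.047 (SE 0.093). Tra2b averaged 329 CPM and exceeded Tra2a by a per-kilobase ratio of 1.94 ± 0.21 in NTg and 1.90 ± 0.30 in the mutant (1.34 on the longest coding transcripts). The subunits of U2AF, which recognises the 3′ splice site, were unequal: U2af2 averaged 167 CPM (log2 fold change 0.014) and U2af1 42.0 CPM (log2 fold change 0.032). Their per-kilobase ratio was 2.53 ± 0.14 in NTg and 2.51 ± 0.22 in the mutant (1.91 on the longest coding transcripts).

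Polypyrimidine tract binding proteins repress exons, and PTBP1 is the form of most cells outside the nervous system. Ptbp1 stood at 440.2, 408 and 386 CPM in NTg, against 423, 370.2 and 397 CPM in the mutant. Mutant 10 was the lowest library and NTg 7 the highest, with overlap between the groups and a log2 fold change of -0.053 (SE 0.094). Ptbp3, the form first described in blood cells, averaged 215 CPM (log2 fold change -0.027). Per kilobase, Ptbp1 exceeded Ptbp3 by a ratio of 2.99 ± 0.15 in NTg and 2.94 ± 0.15 in the mutant and the neuronal form Ptbp2 by 16.8 ± 1.8 in NTg and 17.1 ± 4.8 in the mutant, the second ratio varying more between the mutant libraries. On the longest coding transcripts the ratio to Ptbp3 was 4.06 and the ratio to Ptbp2 was 10.2.

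The 3 nuclear matrix and paraspeckle genes each had a small negative fold change. Sfpq (mm10 chr4:127021324-127037013, plus strand), which with Nono forms the protein core of paraspeckles, stood at 864, 721 and 749.5 CPM in NTg, against 792, 715 and 764 CPM in the mutant. NTg 7 was the highest library and the rest overlapped, with a log2 fold change of -0.040 (SE 0.10). Nono averaged 133 CPM (log2 fold change -0.054). The per-kilobase ratio of Sfpq to Nono was 5.32 ± 0.51 in NTg and 5.40 ± 0.54 in the mutant (4.27 on the longest coding transcripts). Matr3, which codes for matrin 3, gave 169, 171 and 153 CPM in NTg, against 156, 161 and 157 CPM in the mutant. Its groups overlapped, and the log2 fold change was -0.056 (SE 0.083). The Matr3 value is uncertain: 17.3% of its exon length is shared on the same strand with Gm28285, whose counts were 58.0% to 62.9% of those of Matr3, and a fragment over both was counted for both.

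Of the CELF, MBNL, HuR and quaking genes, 1 had a positive and 5 a negative fold change. Qk, the quaking gene, best known for its role in myelinating glia, had the highest CPM of all members. It stood at 1127, 1087 and 1200.4 CPM in NTg, against 1080.2, 1059 and 1180.3 CPM in the mutant. NTg 11 and mutant 12 were the highest of their groups, the groups overlapped, and the log2 fold change was -0.040 (SE 0.095). Oligodendrocytes also express Qk, and the part of their RNA in its level was not tested. Celf1, which binds GU-rich elements, gave 111, 109.6 and 102 CPM in NTg, against 102, 97.5 and 108 CPM in the mutant, with overlap and a log2 fold change of -0.073 (SE 0.083). Celf2 was the steadiest member: it gave 199, 204 and 199.9 CPM in NTg, against 202, 195 and 204 CPM in the mutant, and its highest library was 1.04 times its lowest. Per kilobase the ratio of Celf2 to Celf1 was 0.610 ± 0.028 in NTg and 0.640 ± 0.019 in the mutant, but it turned to 1.69 on the longest coding transcripts, so which of them is the higher depends on the length used. The muscleblind genes, whose proteins are sequestered by expanded CUG repeats in myotonic dystrophy, averaged 509.8 CPM for Mbnl1 (log2 fold change -0.040) and 168 CPM for Mbnl2 (log2 fold change -0.0014). Their per-kilobase ratio was 1.98 ± 0.19 in NTg and 1.95 ± 0.38 in the mutant (2.45 on the longest coding transcripts). Elavl1, which codes for the RNA-stabilising protein HuR, averaged 77.8 CPM (log2 fold change 0.024).

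The FET proteins bind RNA and join transcription to splicing, and 2 of them were members. Ewsr1 stood at 314, 305 and 240.2 CPM in NTg 7, 9 and 11 and 299.6, 290.3 and 243 CPM in mutant 8, 10 and 12. NTg 11 and mutant 12 were clearly low and the other 4 libraries close together, so the groups overlapped and the log2 fold change was -0.045 (SE 0.13). Under the covariate for combined alignments it took the other sign, at 0.21, with the estimate then resting on NTg 11. Taf15 followed the same course at a lower level, with 77.1, 82.1 and 65.5 CPM in NTg, against 80.6, 78.2 and 62.8 CPM in the mutant. The ratio of Ewsr1 to Taf15 per kilobase was 1.89 ± 0.11 in NTg and 1.86 ± 0.045 in the mutant, and 3.03 on the longest coding transcripts.

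The members varied between libraries in ways that genotype did not order. The highest library was at most 1.39 times the lowest, with a median of 1.18 over the members against 1.31 over genes above 10 CPM, and 37 members stayed under 1.25. For 15 members (31.3%) the 2 lowest libraries were NTg 11 and mutant 12, against 14.7% of genes above 10 CPM. They were Ewsr1, Taf15, Hnrnpa1, Hnrnpd, Hnrnpl, Hnrnpll, Hnrnpm, Srsf5, Srsf6, Srsf10, Srsf11, Rbm39, U2af1, Ptbp3 and Mbnl2. For 13 members (27.1%, against 23.0% of genes above 10 CPM) the 2 lowest were NTg 9 and mutant 10: Hnrnpa0, Hnrnpa2b1, Hnrnph1, Hnrnpk, Hnrnpu, Hnrnpul1, Hnrnpul2, Srsf1, Srsf7, Srsf9, Sfpq, Nono and Mbnl1. NTg 7 and mutant 8 were the 2 highest libraries for 12 members, or 25.0%, against 6.98% of genes above 10 CPM. Each of these pairs holds 1 library of each genotype and neighbouring numbers, and the labels name no pairs, so the sorting is a description made after the values were seen. Some marker sums set NTg 9 and mutant 10 apart. Oligodendrocyte markers were highest there, as given above. So were endothelial markers, at 102, 359 and 145 CPM in NTg 7, 9 and 11 and 189, 365 and 98.4 CPM in mutant 8, 10 and 12. Neither sum set NTg 11 and mutant 12 apart from NTg 7 and mutant 8. Microglial markers summed to 13096, 11732 and 14913 CPM in NTg 7, 9 and 11 and 12959.6, 10532 and 15343 CPM in mutant 8, 10 and 12. This microglial sum was lowest in NTg 9 and mutant 10 and highest in NTg 11 and mutant 12. Neutrophil and ependymal sums, given above, did not sort by these pairs. The immediate early genes, which respond quickly to stimulation, summed to 17603, 15240.1 and 19512 CPM in NTg 7, 9 and 11 and 19518, 16793 and 22080.1 CPM in mutant 8, 10 and 12. Their sum was lowest in NTg 9 and mutant 10. Of this list 10 of 11 genes had positive fold changes, with 1 not overlapping, against 6.85% of all genes, and 0 at an unadjusted p under 0.05. The part of these cells and states in the members' values was not tested. The alignments of NTg 7 and NTg 9 are named as combined in the file headers, and no mutant library is, so this difference and genotype cannot be told apart in those libraries.

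**Figure D4:**
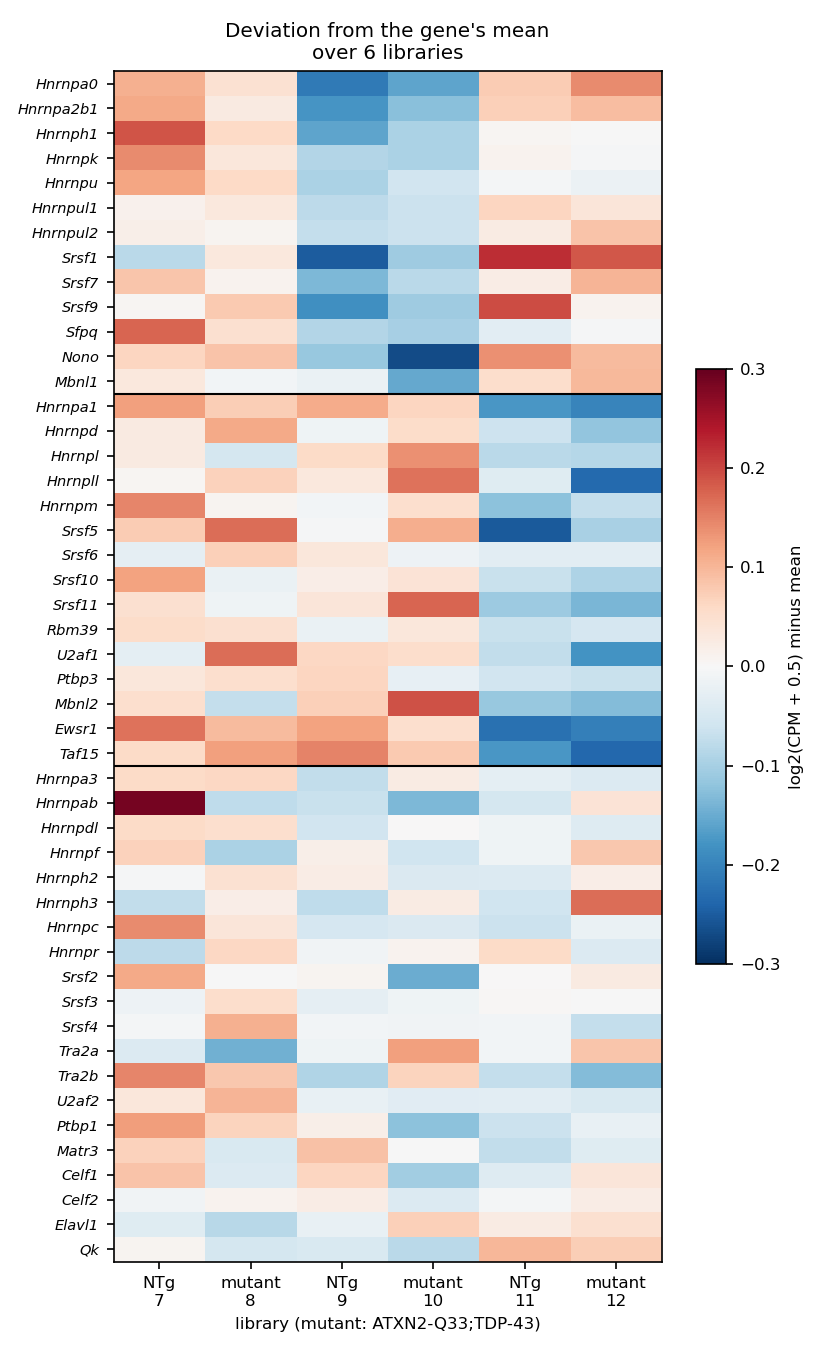
Deviation of each member's log2 CPM from its own mean over the 6 libraries, on a colour scale from blue (lower) to red (higher), with libraries as columns in order of number and members as rows, sorted by which libraries were lowest. One block of members is low in NTg 11 and mutant 12, and another is low in NTg 9 and mutant 10. No column pattern separates the 3 mutant from the 3 NTg libraries.

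Promoters of 2 genes from each set are shown, and any link between promoter sequence and the sets was not tested. Each runs from 250 bases before to 50 bases after the RefSeq start on GRCm38.p6, is written 5′ to 3′ along the gene, and was chosen after the values were seen. Capitals mark the GC box GGGCGG or its reverse complement CCGCCC, a motif bound by SP1 and its relatives. The first 2 genes, Hnrnpa1 and Ewsr1, were lowest in NTg 11 and mutant 12, and the other 2, Sfpq and Hnrnpu, were lowest in NTg 9 and mutant 10.
Hnrnpa1, chr15:103240147-103240446, plus strand: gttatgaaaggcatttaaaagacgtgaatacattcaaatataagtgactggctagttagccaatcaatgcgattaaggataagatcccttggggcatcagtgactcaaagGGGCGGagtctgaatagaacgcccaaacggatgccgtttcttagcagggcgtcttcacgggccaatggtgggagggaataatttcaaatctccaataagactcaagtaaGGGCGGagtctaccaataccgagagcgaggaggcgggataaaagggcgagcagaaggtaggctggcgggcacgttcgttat
Ewsr1, chr11:5099047-5099346, minus strand: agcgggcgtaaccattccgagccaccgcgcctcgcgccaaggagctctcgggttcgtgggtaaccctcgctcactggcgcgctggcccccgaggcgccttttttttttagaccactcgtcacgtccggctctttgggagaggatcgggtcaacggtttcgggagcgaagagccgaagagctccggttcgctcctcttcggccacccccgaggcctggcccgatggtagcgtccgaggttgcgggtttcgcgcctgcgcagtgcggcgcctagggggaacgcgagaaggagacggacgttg
Sfpq, chr4:127021051-127021350, plus strand: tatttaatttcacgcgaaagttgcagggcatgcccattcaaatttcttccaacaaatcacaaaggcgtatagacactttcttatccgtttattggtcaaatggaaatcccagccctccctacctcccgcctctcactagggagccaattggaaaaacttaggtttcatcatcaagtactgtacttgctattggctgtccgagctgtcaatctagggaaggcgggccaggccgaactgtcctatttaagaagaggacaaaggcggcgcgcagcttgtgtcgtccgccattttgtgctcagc
Hnrnpu, chr1:178337766-178338065, minus strand: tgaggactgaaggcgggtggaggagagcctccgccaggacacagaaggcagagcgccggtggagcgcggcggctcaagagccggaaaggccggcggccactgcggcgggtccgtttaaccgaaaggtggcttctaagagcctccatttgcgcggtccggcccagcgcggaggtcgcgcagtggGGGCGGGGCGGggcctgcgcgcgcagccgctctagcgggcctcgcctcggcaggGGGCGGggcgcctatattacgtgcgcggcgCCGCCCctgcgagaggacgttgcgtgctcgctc

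Within each set the 2 promoters shown differed. Hnrnpa1 held 2 GC boxes and 4 copies of CCAAT (either strand, ATTGG on the other), whereas Ewsr1 held 0 of both in this window. Sfpq held 0 GC boxes and 4 copies of CCAAT, and Hnrnpu held 4 GC boxes. Promoters were found for 43 of 48 members, 62 in all with alternative starts. A GC box was in 72.6% of these against 35.7% of the 32851 promoters in the table, CCAAT in 51.6% against 37.4%, and TATAAA (or TTTATA) in 9.68% against 13.6%. The median member promoter had 28.5 CG dinucleotides and 66.0% G or C, against 7 and 52.7% over all. The 32851 promoters were not limited to genes expressed in these libraries, whereas all 48 members stood above 10 CPM. GC boxes and GC content overlap by construction, and a match in these letters is a description of the sequence.

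In the other parts of the splicing pathway, 5 lists of genes, edgeR called 0 genes. An unadjusted p under 0.05 was found for 2 genes, both neuronal, muscle and epithelial regulators, beside 2.26% of all genes. Groups did not overlap for 1 of 9 kinases and for 1 higher and 1 lower of 33 other RNA-binding factors. The same held for 1 higher and 1 lower of 60 core spliceosome genes. It held for 0 of 16 exon junction and decay genes and 2 of 13 neuronal, muscle and epithelial regulators, against 6.85% of all genes. The genes named below were partly picked by smallest p. Of the kinases that phosphorylate SR proteins, 9 of 9 were tested and 5 had positive fold changes, with a median of 0.0034. Srpk3 stood at 11.2, 11.3 and 9.94 CPM in NTg, against 12.3, 13.03 and 13.5 CPM in the mutant. Its groups did not overlap, with a log2 fold change of 0.26 (SE 0.15) (edgeR adjusted p = 0.9996). For Clk4 it was -0.10 (SE 0.090). Clk1, the highest kinase per kilobase, stood at 55.3 CPM per kilobase with a log2 fold change of 0.12 (SE 0.12), which was 0.025 without NTg 9, 0.047 without mutant 12 and 0.016 with the term for combined alignments.

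Of 34 other RNA-binding splicing factors 33 were tested and 14 had positive fold changes, with a median of -0.0073. Pnn, the speckle protein pinin, gave 87.4, 83.3 and 82.4 CPM in NTg, against 89.7, 96.4 and 91.4 CPM in the mutant, groups that did not overlap, with a log2 fold change of 0.13 (SE 0.080). The RNA helicase Ddx5 was highest at 341 CPM per kilobase. In the core spliceosome all 60 genes were tested and 28 had positive fold changes, with a median of -0.0076. Plrg1 had a log2 fold change of -0.22 (SE 0.13). Sf3a2, a subunit of the U2 particle, gave 53.3, 47.9 and 45.3 CPM in NTg, against 44.2, 41.9 and 44.6 CPM in the mutant, lower without overlap, with a log2 fold change of -0.16 (SE 0.10). Sf3b1, the branch point protein of the same particle, was highest in the list at 54.8 CPM per kilobase, with a log2 fold change of -0.012 (SE 0.084). Of the exon junction complex and nonsense-mediated decay list 16 of 16 were tested and 9 were positive, with a median of 0.012. The log2 fold changes were -0.16 (SE 0.10) for Smg5, 0.083 (SE 0.13) for Upf3a and 0.10 (SE 0.17) for Magoh, all with overlapping groups.

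The splicing regulators of neurons, muscle and epithelium were low: 13 of 23 passed the filter on low counts, of which 7 had positive fold changes, with a median of 0.018. Celf5, a neuronal CELF protein, gave 32, 22 and 39 counts in NTg and 10, 7 and 14 counts in the mutant. Its groups did not overlap, and the log2 fold change was -1.56 (SE 0.46) (edgeR adjusted p = 0.9996). Elavl4, a neuronal relative of HuR, stood at 4.99, 3.82 and 3.63 CPM in NTg, against 2.74, 1.83 and 2.91 CPM in the mutant, again lower without overlap, with a log2 fold change of -0.72 (SE 0.31) (edgeR adjusted p = 0.9996). Both values rest on few counts. Neuronal markers as a list summed to 22.6, 21.4 and 22.8 CPM in NTg 7, 9 and 11 and 37.0, 18.6 and 18.9 CPM in mutant 8, 10 and 12, and their part in the values of Celf5 and Elavl4 was not tested. Khdrbs3, the highest of the list per kilobase, had a log2 fold change of 0.10 (SE 0.14).

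Many of these genes are known to limit their own expression through transcripts that are degraded or kept in the nucleus. In GENCODE M21 the 48 members have 502 transcripts, of which 240 are typed as protein coding, 59 as targets of nonsense-mediated decay and 126 as retained introns. A transcript of either of the last types was annotated for 39 members. Decay transcripts were annotated for 9 of 10 SR genes and 5 of 5 genes of the SR-like and U2AF group, and for 0 of 2 FET genes. Fragments from all of these count towards the same gene total, so the values above do not separate coding from decayed forms. On the same strand, 5 members share exon sequence with another gene, Hnrnpm and Matr3 over more than 10% of their length. Besides Matr3, given above, the other gene's counts were 20.8% to 22.8% of those of Hnrnpul2 and 8.4% to 10.3% of those of Sfpq. They were 4.4% to 5.3% of those of Hnrnpm and 3.3% to 5.1% of those of Hnrnpa3.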

How the data were processed

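The data were RNA sequencing of 6 libraries of bead-isolated spinal cord microglia, 3 NTg and 3 ATXN2-Q33;TDP-43, each from a separate pool of animals. The labels' protocols give a stranded kit for small inputs, used after ribosomal RNA had been removed. The submitters' processing notes name Trim Galore 0.4.1, FastQC, TopHat2 and the assembly mm10. The deposited table holds raw counts of fragments per gene, not normalized, and each gene's merged exon length in bases. Per the file headers it was made with featureCounts 1.6.1 and GENCODE vM25 on the reverse strand. Read pairs counted once, and a pair over several genes counted for each of them. Reads that align to several places were left out, which lowers the counts of genes with close copies. A further 6 columns belong to other samples and were left aside.

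Ensembl identifiers were matched to GENCODE M21 symbols for 55141 genes and not for 260. The main test was edgeR 4.0.16 (R 4.3.3) after filterByExpr at a minimum count of 10, with TMM scaling, a robust quasi-likelihood fit, no covariates, and Benjamini-Hochberg adjustment over all genes tested at a threshold of 0.05. The 95% intervals use the t distribution and the degrees of freedom of that fit. CPM values are scaled by TMM. The permutation test was exact and ran on log2(CPM + 0.5). Alternatives used DESeq2 1.42.0 and voom in limma 3.58.1. Library pairs differed by a chi-square of 6.10 to 33.6 per degree of freedom, so each library was kept as 1 replicate. The lowest values belonged to neighbouring numbers of opposite genotype. They were 6.10 for NTg 11 and mutant 12, 8.76 for NTg 7 and mutant 8, and 10.7 for NTg 9 and mutant 10. Pairs of the same genotype ran from 11.1 to 32.7. The main fit and its intervals take no account of this pairing. With it as a block, edgeR called 71 genes and 0 members. Promoters came from RefSeq on GRCm38.p6.

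The members and lists were chosen with earlier results of these data known. Values in every library are given for the 5 members of smallest p, for the member of smallest p and the highest per kilobase in each role, and for the 2 lowest members. Of each pathway list the 2 genes of smallest p and the highest per kilobase are named. A gene that this rule names is not reported here. Hnrnpa1, Hnrnpa2b1, Hnrnpu, Srsf1, Celf2, Taf15 and Tardbp were added after their values were seen. So were the ratios between related genes, the pairs of libraries, the promoters shown and the longest coding transcript as a length.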

Additional observations from a re-analysis of the deposited data

How the results depend on the processing

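The labels pair no libraries, and the groups share no replicate numbers. A fit with neighbouring numbers as a block was run as an alternative only. With 3 pools per group, the intervals leave differences of up to 1.32-fold possible for single members, and counts per gene do not show isoforms. That bound is not the smallest difference the test could detect. No member passed the threshold under any of 16 alternatives (0 of 768 values). For 32 members, 83 of 512 values had the other sign. All genes called were 7 with DESeq2, 6 with no filter on low counts and 71 with that block. Leaving out 1 library gave 0 to 2 genes called, the 2 without mutant 12. Members without overlap were 2 under upper-quartile scaling (6.77% of all genes) and 1 to 10 with a library left out (11.6% to 19.7% of all genes), and positive members 14 to 34. The median of the neuronal, muscle and epithelial list was 0.26 with no filter. With a term for combined alignments, so that replicate 11 alone stands for NTg, the median was 0.092 for kinases and 0.044 for other RNA-binding factors, and the sign turned for Ewsr1 (0.21), Matr3 (0.048), Ptbp1 (0.040), Hnrnpr (-0.048), Sfpq (0.014), Celf1 (0.0029), Clk4 (0.0038), Sf3b1 (0.030), Smg5 (0.033), Upf3a (-0.082), Magoh (-0.023) and Khdrbs3 (-0.00020). Hnrnpll was -0.011 with voom and -0.0042 with the block. With a library left out, the sign turned in these named genes: Ddx5 (-0.0042 to 0.072), Ewsr1 (-0.15 to 0.043), Hnrnpab (-0.18 to 0.0045), Hnrnph1 (-0.11 to 0.062), Hnrnpk (-0.10 to 0.015), Hnrnpll (-0.081 to 0.12), Hnrnpr (-0.016 to 0.058), Khdrbs3 (-0.061 to 0.21), Magoh (-0.062 to 0.21), Qk (-0.088 to 0.0038), Rbm39 (-0.0029 to 0.054), Sf3b1 (-0.030 to 0.019), Sfpq (-0.094 to 0.040), Tra2a (-0.0042 to 0.13) and Upf3a (-0.027 to 0.18). Others kept their sign and moved by over 1.5 times: Ptbp1 (-0.10 to -0.0027), Matr3 (-0.10 to -0.027), Srsf5 (0.031 to 0.19), Srsf2 (-0.11 to -0.030), Hnrnph3 (0.10 to 0.18), Celf1 (-0.11 to -0.040), Clk1 (0.025 to 0.19), Clk4 (-0.15 to -0.029), Sf3a2 (-0.21 to -0.10), Smg5 (-0.24 to -0.11). The cause was not tested. The scalings moved the median of all genes by at most 0.012.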
